A study of Drosophila melanogaster with 3 samples.

Results

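The 200 strongest pb-GFP peaks made up 7.3% of the optimal peak list on genome build dm6. The authors had cut that list by irreproducible discovery rate (IDR), which scores how far the rankings of replicates repeat each other. The 200 were chosen by the deposited signal value of each peak, from the highest down, and the rest of the list are called the weaker peaks. Chromatin immunoprecipitation followed by sequencing (ChIP-seq) with an antibody against GFP had been done on whole Drosophila melanogaster embryos, both sexes pooled, aged 0 to 24 h. All embryos came from 1 transgenic line that stably expresses the protein of proboscipedia (pb) with GFP at its C terminus, and chromatin had been sheared to 200 to 800 bp. All 3 libraries were biological replicates in 1 group, so genotypes, treatments and stages could not be compared. Every tissue of the embryo was mixed, no library from embryos lacking the tag was used here, and recovery through pb-GFP cannot be told apart from recovery by other routes. Signal fell from 2484 at rank 1 to 416.6 at rank 200, with a median of 570, and the next peak stood at 416.0. The −log10 q was the same for every peak of the list, so it does not order the members. No source used here names the signal's statistic or scaling, and it was read only as a rank.

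Replicate 1 stood apart from the other 2 libraries. Within 100 bp of the summit, the mean GC content was 40.4% for its top 200 and 44.4% for its weaker peaks, against 37.7% and 39.7% in replicate 2 and 37.9% and 40.6% in replicate 3. Coding exons held 4.76% of its weaker peaks, 0.394% of those of replicate 2 and 0.512% of those of replicate 3. Without it, the differences between the top 200 and the weaker peaks of a library kept their direction, at 7.21 percentage points for the promoter share and -2.38 points for GC content.

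In the Antennapedia complex, pb is the Hox gene that the adult mouthparts need. Its product is a homeodomain transcription factor. Hox proteins alone bind short sites with a TAAT core, and with the cofactors Extradenticle (Exd) and Homothorax (Hth) they bind longer composite sites. Summits of ChIP-seq peaks often lie at promoters, the stretches beside the start sites of genes, where general and gene-specific factors meet.

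Short words of sequence that many of the 200 peaks had in common are shown first, since the members shared them more often than the weaker peaks did. All words of 7 letters were counted in a stretch on each side of the summit, read on the strand that runs towards the summit. The 5 words whose share differed most between members and weaker peaks were kept. These words were picked from the peaks they describe, so their shares are a description with no test. The word GGCGTAG stood second by that difference. The following 30 bases of the Release 6 reference genome show it in capitals, read towards the summit and aligned on the word.
Ugalt, rank 1, chrX:2703954-2703983, minus strand: agctgcacgccatgGGCGTAGcttgcttta
CG14100, rank 4, chr3L:19590671-19590700, minus strand: acactgcttgcatgGGCGTAGtgaagtttc
CG9663, rank 14, chr2L:3302223-3302252, minus strand: ttgtttatgccagtGGCGTAGaaagggggt
CHMP2B, rank 27, chr3L:5139558-5139587, minus strand: gtaatgaaatcatgGGCGTAGatggtaagt
CG3552, rank 48, chr3L:9457700-9457729, plus strand: tcttttggatcaaaGGCGTAGctcaaattt
CG16753, rank 49, chr3L:3060871-3060900, minus strand: agagcaaaggcaggGGCGTAGgccaaagtg
amon, rank 58, chr3R:26714441-26714470, minus strand: agtaggcgagcaggGGCGTAGtcgggtgga
CG3009, rank 71, chrX:4667077-4667106, minus strand: tgggcgtggccaggGGCGTAGgcccaaatt
moody, rank 83, chrX:2050219-2050248, plus strand: cgccgccggccagtGGCGTAGggaactgat
A CA pair stood 4 and 3 bases before the word at 13 of its 18 matches within 100 bp of member summits (72.2%), at 57.6% of the 33 matches in weaker peaks and at 9.28% of its 7446 matches on the chromosome arms. This pair was noticed in the printed stretches, so its share is a description.

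The word with the largest difference was ACAGTGG. It is in capitals in the next 30-base stretches, again read towards the summit. Rtnl1, which encodes a reticulon of the endoplasmic reticulum membrane, held it on both sides of 1 summit.
Lk6, rank 6, chr3R:11761020-11761049, plus strand: catagttttACAGTGGcacataaactaaac
tara, rank 12, chr3R:16222567-16222596, minus strand: cactctgccACAGTGGtccctggcttagag
larp, rank 20, chr3R:28326672-28326701, minus strand: tctgaagccACAGTGGgacttcttcgggtg
Rtnl1, rank 33, chr2L:4997566-4997595, plus strand: aagcagtgcACAGTGGgcacgccagcaatc
Rtnl1, rank 33, chr2L:4997731-4997760, minus strand: ttctaccgcACAGTGGgttgtcttgattgg
NFAT, rank 34, chrX:13640426-13640455, plus strand: tgctttgccACAGTGGgctagagcgtgcta
bves, rank 54, chrX:21054405-21054434, minus strand: tcgtggtgcACAGTGGtcgcaattgcatac
CG31635, rank 61, chr2L:6647102-6647131, plus strand: ttcgaacgcACAGTGGgcccagccacagtt
CG42507, rank 64, chr3L:14759390-14759419, plus strand: aaaccaagcACAGTGGgatacaaaacataa

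The next stretches hold 100 bases each and end on the summit base, so that the spacing between word and summit can be read off. Capitals mark any of the 5 words on the strand that runs towards the summit. They are the strongest peak (Ugalt), both sides of CG14100 and Rtnl1, an intergenic member (tara), an intronic member (NFAT) and a member with the long form of the second word (amon).
Ugalt, rank 1, chrX:2703891-2703990, minus strand: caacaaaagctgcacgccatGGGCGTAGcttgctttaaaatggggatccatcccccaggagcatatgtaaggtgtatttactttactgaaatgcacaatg
CG14100, rank 4, chr3L:19590533-19590632, plus strand: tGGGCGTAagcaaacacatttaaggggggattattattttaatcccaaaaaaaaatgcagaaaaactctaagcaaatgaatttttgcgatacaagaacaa
CG14100, rank 4, chr3L:19590632-19590731, minus strand: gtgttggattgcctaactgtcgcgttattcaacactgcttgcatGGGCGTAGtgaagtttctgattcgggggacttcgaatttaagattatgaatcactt
tara, rank 12, chr3R:16222503-16222602, minus strand: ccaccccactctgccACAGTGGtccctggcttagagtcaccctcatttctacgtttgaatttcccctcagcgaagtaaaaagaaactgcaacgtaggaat
Rtnl1, rank 33, chr2L:4997565-4997664, plus strand: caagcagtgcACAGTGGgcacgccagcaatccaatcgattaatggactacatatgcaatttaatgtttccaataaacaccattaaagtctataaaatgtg
Rtnl1, rank 33, chr2L:4997664-4997763, minus strand: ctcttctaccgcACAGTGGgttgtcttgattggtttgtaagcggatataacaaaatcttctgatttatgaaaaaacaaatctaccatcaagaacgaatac
NFAT, rank 34, chrX:13640394-13640493, plus strand: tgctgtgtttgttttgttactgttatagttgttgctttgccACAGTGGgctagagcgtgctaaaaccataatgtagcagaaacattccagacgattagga
amon, rank 58, chr3R:26714378-26714477, minus strand: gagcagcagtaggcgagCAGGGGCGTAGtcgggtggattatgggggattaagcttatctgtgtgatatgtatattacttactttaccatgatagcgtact

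The word ACAGTGG, searched within 100 bp of the summit on both strands, occurred in 35 of the 200 peaks (17.5%) and in 8.43% of the weaker peaks. It occurred in 2.25% of windows of the same length centred 1000 bp from the member summits and in 2.28% of windows at all 19252 annotated start sites of protein-coding genes. The top 50 peaks held it in 16% and ranks 51 to 200 in 18%. Below the members its share was 13.7% down to rank 500, 10.8% over ranks 501 to 1000 and 6.84% beyond rank 1000. In the libraries taken singly, the own top 200 held it in 17%, 14% and 16% for replicates 1, 2 and 3, against 7.83%, 9.06% and 7.17% of the weaker peaks, read in each library to the length of the thresholded list. Each library's top 200 holds 82 to 86% of the members from which the words were picked. The direction in each library was therefore favoured by the choice, for this word and for the others, and adds no separate evidence. The word was at 28.6% of the 35 intronic members, 17.4% of the 23 intergenic members and 15.1% of the 139 promoter members, and at 12.4%, 7.55% and 6.84% of the weaker peaks of those classes.

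The word GGCGTAG occurred in 17 members (8.5%) and in 1.3% of the weaker peaks, with 1% of the windows 1000 bp away. It was most frequent at the very top, in 18% of ranks 1 to 50, 5.33% of ranks 51 to 200, 1.33% from there to rank 500, 2.2% of ranks 501 to 1000 and 1.03% beyond rank 1000. The own top 200 of replicates 1, 2 and 3 held it in 7%, 8% and 6.5%, against 1.54%, 1.22% and 1.38% of their weaker peaks. All but 2 of its 17 members were promoter peaks. The other 3 words were GGGCGTA, in 7% of the members and 1.1% of the weaker peaks, then CAGGGGC, in 5% and 1.69%, and last AGGGGCG, in 6% and 1.73%. They overlap with GGCGTAG and join into CAGGGGCGTAG, which stood in full within 100 bp of the summit at amon, CG3009 and PTPMT1. Within 150 bp it also stood at CG16753 (rank 49) and at the member of rank 183. At least 1 of the 5 words lay within 100 bp of 59 members (29.5%), 12.2% of the weaker peaks and 5.02% of the start sites. The full word occurs 98 times on the 6 chromosome arms and GGCGTAG occurs 7446 times, so most copies lay outside the peaks.

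Most matches pointed towards the summit. Within 150 bp of a member summit, ACAGTGG read towards the summit at 46 places and away from it at 7, and 35 of the 46 lay 50 to 125 bp from it. GGCGTAG read towards the summit at 19 places and away at 4, and 17 of the 19 lay 50 to 125 bp from it. The search favoured this direction and this distance, so the counts describe the words rather than support them. In the weaker peaks, within 100 bp, ACAGTGG read towards the summit at 178 of 233 places and GGCGTAG at 23 of 33. Words read towards the summit lay on both sides of 5 members (CG14100, CG9663, Rtnl1, moody and Ptpmeg2), or 2.5%, and of 0.472% of the weaker peaks. Only CG5098, MFS10 and bves held both leading words. At MFS10 a copy of each overlapped in the same stretch, and at CG5098 both read away from the summit.

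**Figure D1:**
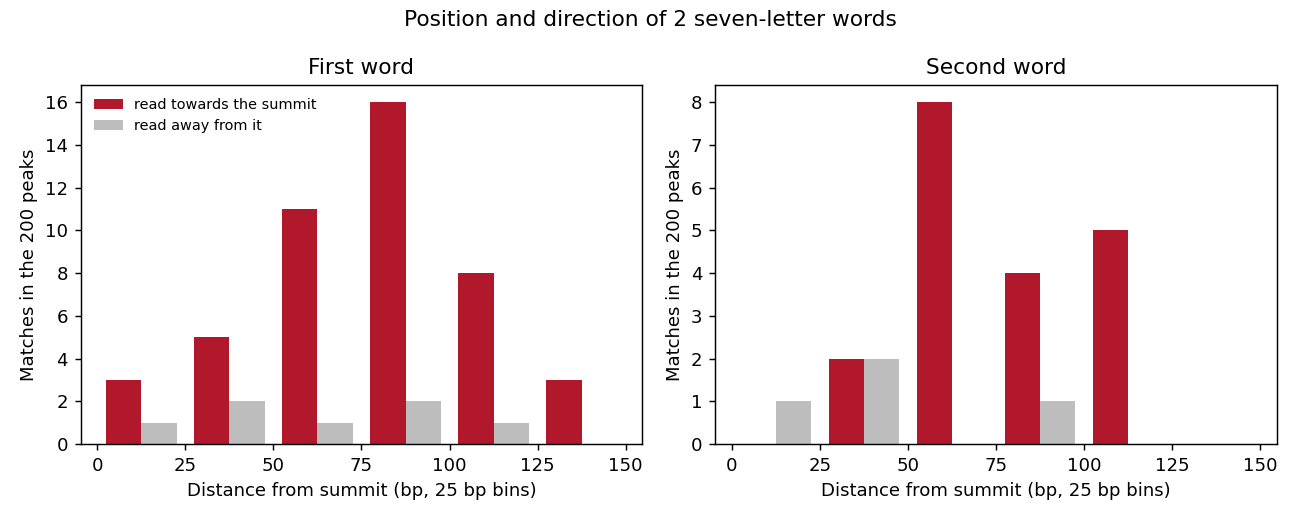
Matches of the first word (ACAGTGG, left) and the second word (GGCGTAG, right) within 150 bp of the 200 summits, by distance from the summit in bp (25 bp bins), as counts of matches read towards the summit (red) and away from it (grey). The tallest red bars hold 16 matches at 75 to 100 bp for the first word and 8 at 50 to 75 bp for the second, and no grey bar exceeds 2.

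The members were found again in the lists of the single libraries, which hold 30000 ranked peaks and background regions each. The thresholded list was built from these same libraries, so this recovery is favoured by the choice and is not independent. A summit within 100 bp stood in all 3 replicate lists for all but 1 of the 200 (99.5%). Over the whole thresholded list the share was 88.4%. Replicate 1's own top 200 held 86% of the members, that of replicate 2 held 85.5% and that of replicate 3 held 82%. The mean was 84.5% ± 2.18 (SD, n = 3). Of the weaker peaks, 1.14%, 1.14% and 1.34% did. In all 3 libraries' top 200 stood 129 members, in 2 of them 50, in 1 of them 20 and in none 1. The 20 strongest members were among the 50 strongest peaks of every library, and the 50 strongest among its 100 strongest. Ranks of the members matched in all lists had Spearman's rho of 0.74 between replicates 1 and 2, 0.642 between 1 and 3 and 0.782 between 2 and 3, over peaks that share these libraries.

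**Figure D2:**
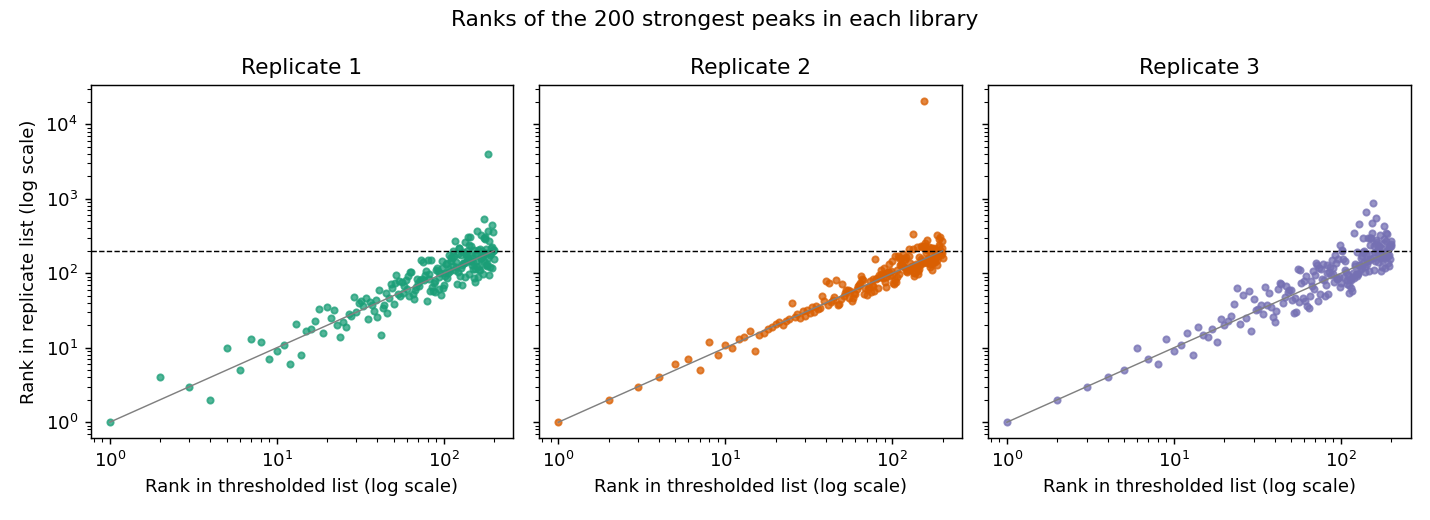
Rank of each of the 200 peaks in the replicate list (y, log scale) against its rank in the thresholded list (x, log scale), 1 panel per library, with a grey line of equal ranks and a dashed line at rank 200. Points hug the grey line at the top ranks and spread around rank 200, with CG13244 at rank 4035 in replicate 1 and nrv1 at 20561 in replicate 2.

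Order within the 200 was looser than membership. The median ratio of a member's highest to its lowest rank was 1.95, against 2.62 for the weaker peaks found in all lists. It was smallest at Ugalt, ranked 1 in every library, at px, ranked 3 in every library, and at Rtnl1, ranked 36, 35 and 37 in replicates 1, 2 and 3. It was largest at a peak 436 bp upstream of nrv1 (a subunit of the sodium pump), ranked 184, 20561 and 874. That summit was 204 bp from a second nrv1 member ranked 139, 77 and 145, the smallest distance between any 2 members. The peak in an intron of beat-Ib, nearest to CG13244, was ranked 4035, 130 and 178, and the one nearest to CG10651 was ranked 99, 122 and 674. The member at bbx, which encodes a high mobility group box protein, had ranks 161 and 106 in replicates 1 and 3 and no summit within 100 bp in replicate 2.

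The strongest members were led by genes of unlike kinds. Ugalt (chrX:2703673-2704086), the UDP-galactose transporter of the Golgi, was ranked 1 in all 3 libraries, with its summit 39 bp upstream of a start site. The next peak lay in an intron of ush, 1376 bp upstream of cbt (chr2L:480881-481307), a zinc finger transcription factor gene of the ecdysone response, and was ranked 4, 2 and 2 in replicates 1, 2 and 3. Rank 3 in every list was held by px (plexus), a gene of wing vein patterning. All 3 of these peaks stood among the 4 strongest of each library. CG14100 was ranked 2, 4 and 4. An intronic peak of CG11050 was ranked 10, 6 and 5. Lk6, a kinase gene downstream of MAPK, followed with 5, 7 and 10, from a summit 979 bp upstream of its start site. PNPase encodes the mitochondrial polynucleotide phosphorylase and was ranked 13, 5 and 7. Art3 encodes an arginine methyltransferase and was ranked 12, 12 and 6. CG1888 was ranked 7, 8 and 13.

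Mitochondrial ribosomal protein gene mRpL41 held thresholded rank 10 and library ranks 9, 11 and 9. Chro, whose chromodomain protein sits at interbands of polytene chromosomes, was ranked 11, 10 and 11. tara, a gene that interacts with Polycomb and trithorax group genes, was ranked 6, 13 and 16 from a summit 3148 bp upstream. The tara peak stood higher in replicate 1 than in the other 2 libraries, and the mRpL41 and Chro peaks moved little. The Polycomb group gene ph-p was ranked 17, 9 and 15. The other genes nearest to the top 20 peaks were CG4004, CG9663, CG32772, CG13323 and CG31145, which have only CG numbers, CenG1A, an Arf GTPase-activating protein gene, and larp, an RNA-binding protein gene. Their library ranks ran from 8 to 35, with CG4004 at rank 8 in replicate 3 and larp at rank 35 in replicate 1.

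The 200 peaks had 186 distinct nearest protein-coding genes, 1.33% of the 13945 on the 6 arms. The whole list had 2047, or 14.7%. Of the 186 genes, 56 (30.1%) had a CG number for a symbol, against 29% of the genes nearest to weaker peaks and 43.7% of all protein-coding genes. Nearest is a measure of distance only: 16 members lay inside another gene than the nearest, among them the cbt peaks in ush, the CycY peak in Pde1c and the CG42507 peak in Trl. Start sites of 2 or more genes lay within 1000 bp of 54 members (27%) and of 23.7% of the weaker peaks. No member had a start of a tRNA, snoRNA, snRNA or miRNA gene within 200 bp, and 8 had a start of another noncoding RNA gene, such as lncRNA:CR31840 at the hll peak.

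By position, 139 of the 200 summits (69.5%, exact 95% interval 62.6 to 75.8) lay in a promoter, meaning at most 1000 bp from where a protein-coding transcript starts. Over the whole list the share was 63.2%, and among the weaker peaks it was 62.8%. Introns held 35 members (17.5%) against 24.8% of the weaker peaks, intergenic sequence 23 (11.5%) against 10.9%, coding exons 2, a 5′ UTR 1 and 3′ UTRs none, against 0.866% of the weaker peaks. Within the libraries, the promoter share of the top 200 was 73.5%, 67% and 70.5% in replicates 1, 2 and 3, and among their weaker peaks it was 61.1%, 60.2% and 62.9%. The top 200 were higher in 3 of 3 libraries, by 8.93 percentage points ± 2.99 (SD, n = 3). With a promoter window of 200 bp the difference was 4.05 points and not in the same direction in all 3 libraries (exact sign-flip permutation p = 0.5). An exact 2-sided sign-flip permutation test gave p = 0.25, the smallest that 3 libraries allow, so no difference between libraries' top and weaker peaks can pass 0.05 here.

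Promoter members sat further upstream than weaker promoter peaks. Their median summit was 123 bp upstream of the nearest start site, with quartiles at 231 and 22 bp upstream, and that of the 1594 weaker promoter peaks was 52 bp upstream. Between 51 and 250 bp upstream lay 68 of the 139 (48.9%) against 32.2% of the weaker, and within 50 bp of the start site 18 (12.9%) against 28.7%. The median of each library's top 200 was 111, 140 and 124 bp upstream in replicates 1, 2 and 3, and that of its weaker peaks 39, 72 and 51 bp upstream. The mean difference was -70.8 bp ± 2.93 (SD, n = 3), with the top 200 further upstream in 3 of 3 libraries (exact sign-flip permutation p = 0.25). CAH3 (130 bp upstream), gro (97 bp upstream) and Hsp83 (84 bp upstream) are examples inside that band.

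**Figure D3:**
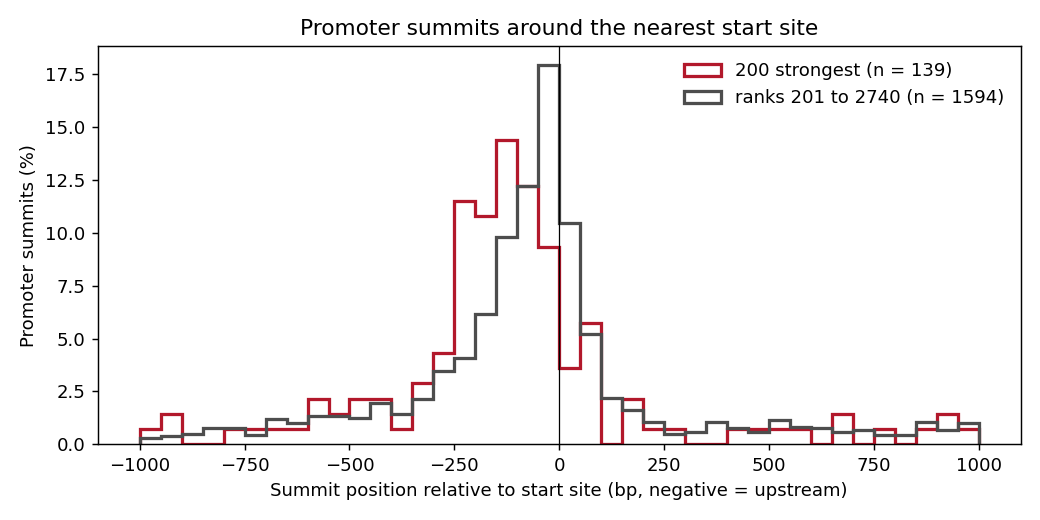
Distribution of promoter summits by position relative to the nearest start site (x, bp, negative upstream, 50 bp bins), as percent of the 139 promoter members (red) and of the 1594 weaker promoter peaks (grey). The highest red bins lie further upstream than the highest grey bin, with medians 123 and 52 bp upstream.

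Outside promoters, the strongest intronic members were the cbt, CG11050 and CG32772 peaks, at ranks 2, 5 and 16. The strongest intergenic members were a tara peak at rank 12, a CG4004 peak at rank 13 and a CG13323 peak at rank 17. The 2 members in coding exons lay in exons of otp, a homeobox gene, at rank 35 (nearest start site Cib2) and of Pde1c, a phosphodiesterase gene, at rank 50 (nearest start site CycY). The 5′ UTR member was at baz, a gene of cell polarity, at rank 173 with library ranks 529, 110 and 107. The library ranks of intronic members had medians of 144, 103 and 98 in replicates 1, 2 and 3, and those of promoter members 93.5, 100 and 104. Intronic members thus stood lower in replicate 1 than in the other 2 libraries.

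Cytoplasmic ribosomal protein genes were the list with most members. Of 86 such genes, 11 were nearest to a member (12.8%), and 62 were nearest to a peak of the whole list (72.1%). Among all protein-coding genes these shares were 1.33% and 14.7%, as given above. The best was RpS27 at rank 42, with library ranks 15, 75 and 62. RpL41 followed with 43, 154 and 82, RpL23A with 58, 112 and 123, and RpL14 with 56, 116 and 97. RpL7, RpL32, RpLP0, RpL13A, RpL30, RpS10b and RpS25 completed the group. Their summits lay between 87 bp upstream and 25 bp downstream of the start site, with a median 28 bp upstream, against 123 bp for all promoter members. Replicate 1 gave the best of the 3 ranks at 10 of the 11, RpS10b being the exception, against 33.1% of the 127 other promoter members. At 52 weaker peaks nearest to ribosomal protein genes, replicate 2 stood apart instead. There replicate 1 gave the best rank at 51.9%, replicate 3 at 42.3% and replicate 2 at 5.77%, with median ranks of 705, 778 and 1416. The own top 200 held 19, 7 and 12 ribosomal protein genes in replicates 1, 2 and 3. Replicate 1 is also the library of higher GC, and the 11 peaks had a median GC of 44.3% against 38.3% for all members; the part of composition in their ranks was not tested.

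**Figure D4:**
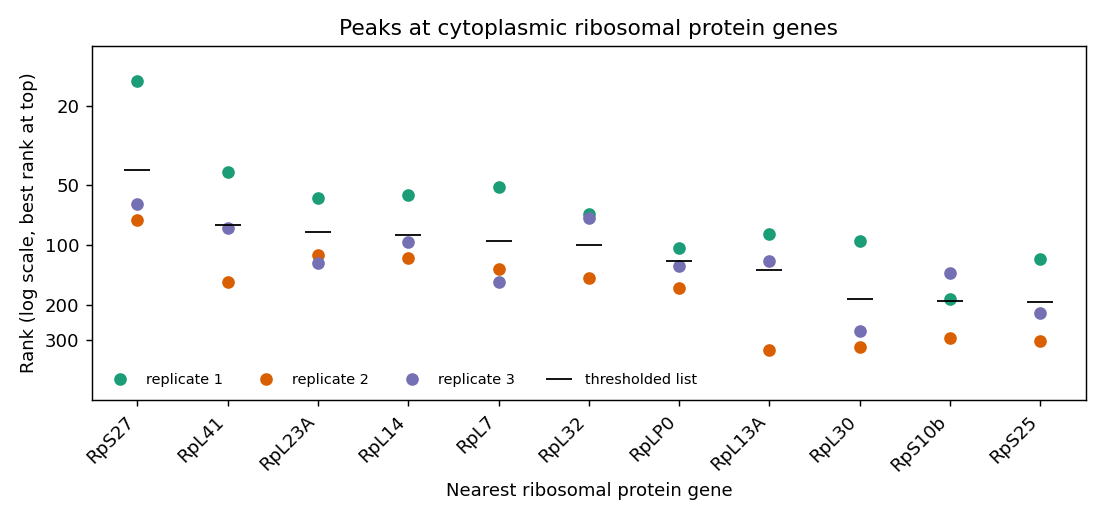
Ranks of the 11 peaks nearest to cytoplasmic ribosomal protein genes (x) in replicate 1 (green), replicate 2 (orange), replicate 3 (violet) and the thresholded list (black dash), on a log scale with the best rank at the top. Green lies above the other 2 libraries at every gene except RpS10b, and the lowest point is RpL13A at rank 337 in replicate 2.

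By hand, from their known roles and after the genes had been seen, 110 of the 186 genes were sorted into 5 groups. No such sorting was done for other genes, so the sizes only describe the members. Transcription and chromatin had 29 genes with 36 peaks, metabolism, transport and secretion 27 genes, ribosomal proteins, translation and RNA 24, signalling 20, and cytoskeleton, polarity and muscle 10. The Polycomb and trithorax list had 3 of 35 genes (8.57%): tara, ph-p and osa, the last a subunit of the Brahma remodelling complex with a peak in an intron at ranks 41, 33 and 38. The list of insulator and chromatin architecture proteins had 2 of 19, Chro and the H3 kinase gene JIL-1, whose intronic peak was ranked 205, 137 and 155. Of the ecdysone response, 3 of 21 genes had members (14.3%), with cbt joined by the nuclear receptor genes Hr4 and Eip75B. Hr4 had peaks at ranks 99 and 197, and Eip75B at ranks 130 and 188. Each of these 3 genes had 2 members. Peaks of the whole list were nearest to 51.4% of the Polycomb and trithorax list, 31.6% of the insulator list and 61.9% of the ecdysone list. Among all protein-coding genes, 1.33% were nearest to a member and 14.7% to a peak of the whole list.

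In the list for the EGF receptor, FGF and MAPK pathway, 4 of 29 genes had members (13.8%), with 6 peaks. Peaks of the whole list were nearest to 44.8% of the 29. The shares over all protein-coding genes were 1.33% for members and 14.7% for the whole list. The pathway runs from ligands through the receptor and the kinase Raf to MAPK. Its main ligand gene spi was ranked 123, 157 and 86, from a summit 171 bp upstream. aos, the gene of the secreted inhibitor, had a peak in an intron ranked 219, 113 and 98. The kinase gene Raf alone had 3 peaks, at thresholded ranks 43, 137 and 171. Lk6, described above, was the strongest. The own top 200 of each library was nearest to 4 genes of the list.

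In each of the other lists at most 2 genes were nearest to a member, where the share over all protein-coding genes was 1.33%. Mitochondrial ribosomal proteins had 2 of 70 (mRpL41, mRpL23), translation factors 2 of 51 (eEF1gamma with 2 peaks, eIF6 with 1), cell cycle genes 2 of 49 (CycB, CycY), and BMP and Wnt signalling 2 of 32 (sgg, Mad). A single gene was nearest to members in each of the lists for splicing (mub, 1 of 44), chaperones (Hsp83, 1 of 37), segmentation (slp2, 1 of 35), Notch (gro, 1 of 22), neuroblast factors (chinmo with 2 peaks, 1 of 29), salivary gland and tracheal regulators (fkh, 1 of 15), appendage patterning (px, 1 of 28) and cuticle proteins (Cpr76Ba, 1 of 97). No member was nearest to any of the 35 aminoacyl-tRNA synthetases, 87 genes of the general transcription machinery and Mediator, 84 of the proteasome and ubiquitin, 86 of the respiratory chain, 16 of the Hippo pathway, 22 mesoderm and muscle regulators, 15 GATA and blood cell genes, 12 cell death genes, 119 odorant and gustatory receptor genes or 83 cytochrome P450 genes. Of 10 Hox genes and cofactors none was nearest to a member, where the share over all genes was 1.33%, so a count of none is no result about the members. Over the whole list 8 of the 10 were nearest to a peak (80%), where the share over all genes was 14.7%. The best of these was Antp at rank 997, and the 1 peak nearest to pb itself was at rank 1900, 17908 bp from the start site.

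Genes nearest to more than 1 member numbered 13, and 27 members were theirs. Raf had 3 and the others 2 each: CG4004, Eip75B, Hr4, NFAT, Ptpmeg2, bves, cbt, chinmo, eEF1gamma, nrv1, slbo and tara. The second tara peak, 1141 bp upstream, was ranked 105, 69 and 36. NFAT, a transcription factor gene, had an intronic peak ranked 47, 30 and 28 and a peak 940 bp upstream ranked 169, 164 and 146. The 2 chinmo peaks lay 12439 and 18399 bp upstream of that zinc finger gene. slbo, the C/EBP gene of border cells, had peaks 4550 and 6333 bp downstream of its start. Another member lay within 10 kb of 38 members, while the median distance to the nearest member was 134 kb.

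GC content was low at the summits of the members and high beside them. The median within 100 bp of the summit was 38.3% for the members, 39.3% for the weaker peaks, and 42.3% both for windows 1000 bp away and for start sites. Below the members this median was 37.8% down to rank 500, 38.3% over ranks 501 to 1000 and 40.3% beyond rank 1000. Only the peaks beyond rank 1000 had a higher median than the members, so this level was not particular to the members. In 51 bp windows, the members' mean fell to 35.9% at the summit and reached 45.4% and 46.6% at 150 bp to the left and right, a difference of 10.1 percentage points. Weaker peaks had 40.5% at the summit, 1.95 points below their shoulders. The top 200 of replicates 1, 2 and 3 had shoulders 6.26, 12 and 11.8 points above the centre. Their weaker peaks had -0.746, 2.76 and 2.44. The dip was deeper in the top 200 of 3 of 3 libraries, by 8.54 points ± 1.32 (SD, n = 3; exact sign-flip permutation p = 0.25). The difference in mean GC within 100 bp was -2.89 points ± 0.967 (SD, n = 3; exact sign-flip permutation p = 0.25). Within 50 bp it was -5.06 points and within 200 bp -0.214 points. Single members ran from 26.4% at mRpL41 to 63.7% at fkh, the forkhead gene of the gut and salivary gland, and 62.7% at CycY.

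**Figure D5:**
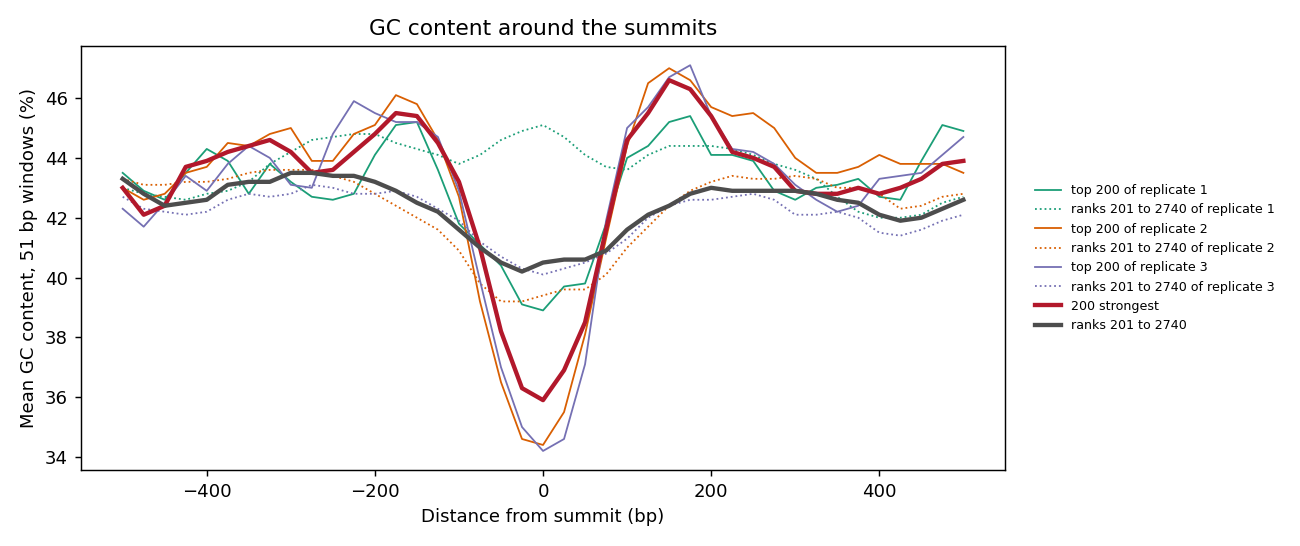
Mean GC content in 51 bp windows (y, percent) by distance from the summit (x, bp), for the 200 members (thick red), the weaker peaks (thick grey), and the top 200 (thin solid) and weaker peaks (thin dotted) of each library. The members fall from 46.6% at 150 bp to 35.9% at the summit, and the dotted line of replicate 1 rises to 45.1% there while those of replicates 2 and 3 fall.

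Of 23 fixed motifs, those whose share differed most between members and weaker peaks were the core of the BEAF-32 site, the CA repeat and the core of the Pho site. Examples at strong members, 30 reference bases each with the motif in capitals, are as follows.
cbt, rank 2, chr2L:481131-481160, minus strand: cctctaaaagcggCGATAaagcagtaggag
Ugalt, rank 1, chrX:2703959-2703988, minus strand: acaaaagctgcacGCCATgggcgtagcttg
tara, rank 12, chr3R:16222465-16222494, minus strand: agtgggatgggttGCCATttattgggggga
aos, rank 123, chr3L:16480453-16480482, plus strand: tttcattcattCACACACAcgtgtacagtg

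The CA repeat (CACACACA, either strand, within 100 bp) was at 1 member (0.5%), aos, and at 6.34% of the weaker peaks, 7.5% of windows 1000 bp away and 4% of start sites. It was at 1% of the top 200 of each library and at 6.22%, 5.71% and 6.81% of the weaker peaks in replicates 1, 2 and 3. The difference was -5.25 points ± 0.552 (SD, n = 3), lower in 3 of 3 libraries, with an exact sign-flip permutation p of 0.25 and 0.359 after Benjamini-Hochberg adjustment over the 23 motifs. Within 200 bp of the summit, 10% of the members had the repeat and the difference over the libraries was -2.42 points, and within 50 bp it was -2.07 points. The BEAF-32 core (CGATA) was at 24% of the members and 30.5% of the weaker peaks. Windows 1000 bp away had it at 23.2% and start sites at 37.1%. The core was lower in the top 200 than in the weaker peaks of 3 of 3 libraries, by 3.94 points on average. Its share in the top 200 and in the weaker peaks was 28% and 28.9% in replicate 1, 22% and 29.8% in replicate 2, and 25.5% and 28.6% in replicate 3. Without replicate 2 the difference was -1.99 points, and over promoter summits alone, chosen after seeing the data, it was -7.08 points. Its strongest carriers were cbt, CG14100, Art3, mRpL41 and Chro. The Pho core (GCCAT) was at 35.5% of the members, 29.8% of the weaker peaks and 33.5% of windows 1000 bp away. Its strongest carriers were Ugalt, PNPase, mRpL41, tara and CG4004. Between the top 200 and the weaker peaks of a library it differed by 0.0486 points on average and not in 1 direction. Pho is the DNA-binding Polycomb group protein, and BEAF-32 is an insulator protein.

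Motifs bound by Hox proteins were counted next. The homeodomain palindrome TAATTA was at 25 members (12.5%), 12.3% of the weaker peaks, 10.8% of windows 1000 bp away and 9.39% of start sites. The composite sites of Exd with a Hox protein, TGATTAAT and the variant TGATTGAT, were at 3 and 4 members (1.5% and 2%) and at 0.709% and 0.669% of the weaker peaks. Windows 1000 bp away had them at 1.75% and 1.25%, and start sites at 0.945% and 0.904%. Both composite sites were higher in the top 200 than in the weaker peaks of 3 of 3 libraries. The differences were 0.493 points ± 0.56 and 1.01 points ± 0.761 (SD, n = 3, exact sign-flip permutation p = 0.25, adjusted 0.359), from few matches. For the palindrome the difference was 0.163 points ± 0.857 and not in 1 direction. The Exd and Hth site TGACAG was at 8.5% and 7.72%. No motif passed 0.05 in the libraries, which 3 libraries cannot reach. Core promoter motifs went both ways. The initiator TCAGTT was at 17.5% of members, 12.6% of weaker peaks and 17.2% of windows 1000 bp away. For the TATA box TATAAA these shares were 27.5%, 23.1% and 19.5%. The Ohler 7 core, with its letters CATCNCTA, was at no member (0 of 200, exact 95% interval up to 1.83%). It was at 4.53% of the weaker peaks and 2.75% of windows 1000 bp away. In the own top 200 of replicates 1, 2 and 3, the Ohler 7 core was at 2%, 0% and 1%. The E-boxes CACGTG and then CAGCTG were at 1.5% and 10% of members, and at 2.72% and 11.1% of weaker peaks.

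The other motifs and their shares in members and weaker peaks were the DRE (TATCGATA, 3.5% and 4.49%), the Ohler 1 core (GGTCACAC, 2.5% and 2.48%), the GAGA factor site (spelled GAGAGAG, 6.5% and 7.2%), Zelda (CAGGTAG, 1% and 0.984%), the GATA site (spelled AGATAA, 13% and 11.5%), AP-1 (TGANTCA, 4% and 5.04%) and CRE (TGACGTCA, 0.5% and 0.354%). The heat shock element (GAANNTTC) was at 6% and 5.43%, the A tract (AAAAAAAA) at 12% and 11.4%, the GC box (GGGCGG) at 4.5% and 5.35%, and the CACCC box (CCACCC) at 8.5% and 7.64%. Of these, 7 differed in 1 direction in 3 of 3 libraries. Higher in the top 200 were the GATA site, by 2.74 points ± 1.23, the heat shock element, by 2.12 ± 1.52, and the CRE, by 0.159 ± 0.138 (SD, n = 3). Lower were AP-1 at -1.42 points ± 0.468, the DRE at -1.04 ± 0.897, the CACCC box at -0.681 ± 0.782 and Zelda at -0.142 ± 0.104 (SD, n = 3). Each had an exact sign-flip permutation p of 0.25, adjusted 0.359. The CRE was at 0.5% and Zelda at 1% of the top 200 of each library, so their directions rest on few matches. In replicate 1 the DRE was at 4% of the top 200 and 4.02% of the weaker peaks. In replicate 2 the CACCC box was at 7% and 7.05%, so for these 2 motifs 1 library was almost a tie.

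Peak widths differed between the members and the rest. Members were 102 to 468 bp wide with a median of 274 bp, while 2202 weaker peaks (86.7%) had the same width of 410 bp, which 1 member had. Widths come from the authors' calling and were not tested.

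The arms X and 2L held 43 members each (21.5%), 3R 41, 2R and 3L 36 each, and chromosome 4 the 1 member nearest to lgs. Among the weaker peaks, X held 18.1%, 2L 17.8% and 3R 24.4%. The own top 200 of replicates 1, 2 and 3 had 42, 40 and 42 peaks on X, and no test of the arms was made. The list thresholded on build dm3 gave the same count on each arm.

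The last members were a promoter peak of CAH3 and, at rank 200, an intronic peak of bves, with library ranks 153, 270 and 232 for the first and 207, 160 and 274 for the second. Just outside stood a promoter peak of Trl, the gene of the GAGA factor, with library ranks 132, 195 and 549, and then one of CG4497 with 163, 177 and 445. Peaks in a library's own top 200 that were not members numbered 28 in replicate 1, 29 in replicate 2 and 36 in replicate 3, and all but 2 of them, both in replicate 3, were matched in the thresholded list.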

How the data were processed

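ChIP-seq with an antibody against GFP was done by the authors on 3 biological replicates of pb-GFP embryos. The deposited notes say that a replicate's list came from its own alignments with a control, and the combined list from the alignments of all 3. The thresholded list held 2740 peaks, 200 members and 2540 weaker ones, and each replicate list was read to rank 2740. The authors' signal value of each deposited peak has no stated statistic and was used as a rank. The deposited −log10 q is the same for every thresholded peak. No source used here names the aligner, the caller or the read depth, so the precision that depth gives is unknown. Signal tracks and the control were not analysed here.

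Summits within 100 bp were matched. Genes came from the Ensembl release 115 annotation (BDGP6.54), names from RefSeq, and bases from the Release 6 genome. A summit took the first class that held, with promoter before UTR and coding exon, and these before intron. Words were searched 35 to 115 bp from the summit, a search added after seeing the data. Each library's 200 strongest peaks were compared with its ranks 201 to 2740 by an exact sign-flip permutation test, with Python 3.11.15, pandas 2.3.3, numpy 2.4.6 and scipy 1.17.1. Intervals are exact (Clopper-Pearson) at 95%. They treat the chosen peaks as independent draws and do not measure the spread between libraries. Matching and counting were checked on simulated peaks. The 28 gene lists, the motifs and the members were chosen with earlier results of these data known. Named were the genes of the 20 strongest members, of 2 or more members, of each list (up to 4), of extreme and missing ranks, of ranks 199 to 202, of the 3 strongest members outside promoters per class, and of the 5 strongest carriers of 3 motifs; further genes named as examples were chosen after their values were seen.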

Additional observations from a re-analysis of the deposited data

How the results depend on the processing

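Of 111 alternative values for 16 results, 87 moved by less than the spread or kept their direction and their side of the threshold; no test here can reach 0.05, so this says nothing of their stability. The promoter share of the members was 40.5% with a window of 200 bp, 59% with 500 bp and 76% with the start sites of all annotated genes. The median GC content was 34.7% within 50 bp and 42.1% within 200 bp of the summit. The share matched in all 3 lists was 88% within 50 bp and 100% within 200 bp, by overlap of the intervals and for the 100 strongest; leaving out a library gave 99.5 to 100%. The mean share in the libraries' own top 200 was 81.2% within 50 bp. Nearest genes per 100 peaks were 93, and 97 for the 100 strongest and when every gene starting within 1000 bp was taken. The X share was 20.5% for the 200 peaks of lowest mean rank. The CA repeat was at 3.25% of the 400 strongest and at 10% within 200 bp. Between a library's top 200 and its weaker peaks, the promoter difference of 8.93 points was 4.05 with the 200 bp window, the CA repeat difference of -5.25 points was -2.42 within 200 bp, and the BEAF-32 difference of -3.94 points was -1.99 without replicate 2. The BEAF-32 core was at 29% of the 400 strongest, 14% within 50 bp and 42% within 200 bp, and the Pho core at 30.2%, 22% and 56.5%. The small difference of the Pho core between a library's top 200 and its weaker peaks turned to -1.46 points within 200 bp and ranged from -1.2 to 1.17 points when a library was left out. The cause of these changes was not tested, except that wider windows hold more sequence. The comparison of promoter summits alone was chosen after seeing the data. Top and weaker peaks were paired within each library throughout; a replicate block across groups needs more than the 1 group studied.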
